A study of Mus musculus with 6 samples.

Results

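Genes of excitatory neurons of the pallium, the part of the forebrain that forms the cortex and hippocampus, were followed in RNA of the mouse SVZ, the subventricular zone, where neural stem cells line the lateral ventricle of the brain. The set held 32 named genes, chosen as markers of glutamatergic neurons and of cortical layers, out of 18614 genes in the deposited table. All 32 matched a gene of the table, and all 32 were among the 15126 genes kept by the filter on low counts. Ctgf and Fam84b stand in the current annotation as Ccn2 and Lratd2. The KO-labelled group was 3 libraries from mice described as Zhx2Δ/Δ, with genotype tags that read ZHX2 KO, ZHX3 KO and ZHX4 KO for KO 1, KO 2 and KO 3. The WT group was 3 libraries from Zhx2+/+ mice, tagged WT. The labels give no age and do not say in which cells the deletion was made. Nothing in the labels says that libraries came from separate animals, so the spread between them, and every p-value, may be technical.

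Excitatory neurons of the pallium use glutamate as their transmitter. They load it into synaptic vesicles with a vesicular glutamate transporter, and they are built under a cascade of transcription factors of the Emx, Neurod and T-box families. Neurons of different cortical layers and areas then carry their own factors, adhesion molecules and synaptic proteins. The adult SVZ itself mainly produces GABAergic neuroblasts bound for the olfactory bulb, and it borders the striatum, the septum and, above it, the corpus callosum and cortex.

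The promoters of 5 members are shown, because Slc17a7, Neurod2, Tbr1 and Neurod6 varied most between the libraries and Slc17a6 was lowest in KO 1, where Slc17a7 was highest. Each is the RefSeq window of assembly GRCm38.p6 from 250 bases before to 50 bases after an annotated start, read 5′ to 3′ on the gene's own strand. Capitals mark CAGATG, an E-box form that Neurod proteins bind.
Slc17a7, chr7:45163671-45163970, plus strand: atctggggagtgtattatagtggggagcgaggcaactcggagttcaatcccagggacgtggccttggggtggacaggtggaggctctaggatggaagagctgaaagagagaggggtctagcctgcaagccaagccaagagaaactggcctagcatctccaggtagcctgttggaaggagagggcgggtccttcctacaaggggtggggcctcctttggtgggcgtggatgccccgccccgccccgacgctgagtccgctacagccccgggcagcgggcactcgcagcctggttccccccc
Neurod2, chr11:98329596-98329895, minus strand: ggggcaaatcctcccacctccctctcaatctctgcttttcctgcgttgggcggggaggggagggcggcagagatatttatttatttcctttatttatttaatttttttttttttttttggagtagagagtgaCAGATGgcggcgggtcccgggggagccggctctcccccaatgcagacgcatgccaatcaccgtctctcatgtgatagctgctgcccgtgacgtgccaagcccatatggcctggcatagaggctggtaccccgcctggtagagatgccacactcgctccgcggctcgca
Tbr1, chr2:61804203-61804502, plus strand: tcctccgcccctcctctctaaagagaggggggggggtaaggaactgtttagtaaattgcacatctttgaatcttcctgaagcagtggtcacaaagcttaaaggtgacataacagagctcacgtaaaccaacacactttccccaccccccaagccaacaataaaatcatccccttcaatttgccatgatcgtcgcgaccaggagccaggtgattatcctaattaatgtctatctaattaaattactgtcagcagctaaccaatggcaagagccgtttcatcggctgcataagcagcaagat
Neurod6, chr6:55681214-55681513, minus strand: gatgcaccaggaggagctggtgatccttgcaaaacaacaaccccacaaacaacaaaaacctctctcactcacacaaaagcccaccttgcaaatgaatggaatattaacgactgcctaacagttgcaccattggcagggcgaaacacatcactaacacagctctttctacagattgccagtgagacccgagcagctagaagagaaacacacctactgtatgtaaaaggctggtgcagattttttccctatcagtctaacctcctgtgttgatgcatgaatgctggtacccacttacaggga
Slc17a6, chr7:51624387-51624686, plus strand: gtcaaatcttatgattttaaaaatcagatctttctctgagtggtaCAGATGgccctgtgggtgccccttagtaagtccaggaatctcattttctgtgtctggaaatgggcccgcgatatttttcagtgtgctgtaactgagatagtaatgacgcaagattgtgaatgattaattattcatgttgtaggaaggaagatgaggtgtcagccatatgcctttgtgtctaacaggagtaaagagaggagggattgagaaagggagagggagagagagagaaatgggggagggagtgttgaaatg

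Of the 32 members, 26 had such windows, 36 in all. CAGATG was searched on both strands and stood in 8 of these 36 windows, those of Neurod2, Slc17a6, Cux2, Etv1, Lamp5, Mef2c, Nrgn and Ntng2. It stood in 17.2% of all 32851 windows of the genome table. A further Slc17a6 window, at an upstream start, held none. A loose Mef2-like pattern, CTA and TAG with any 4 bases between them, was found in 3.69% of all windows. The cAMP response element TGACGTCA was found in 1.79%. Neither was in any of the members' windows, so no CAGATG overlapped them there. A match is only a stretch of letters in a window.

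Library totals lay between 17037152 and 17685906 estimated counts. Zhx2 itself had 1139, 1004 and 959 counts in KO 1 to KO 3, against 735, 675 and 659 in WT 1 to WT 3, so the deletion named in the labels was not visible as a lower transcript count, and each direction below is that of the labels. Choroid plexus markers were at summed levels of 310.1 to 511 CPM in KO-labelled libraries, against 5295 to 22694 CPM in WT libraries. All 11 of these markers were lower in every KO-labelled library than in any WT library, against 8.77% of all genes tested. CPM is the count scaled to the library's size, here with edgeR's TMM factors, and it does not correct for gene length. In bulk RNA, fewer neurons of a type and less RNA per neuron cannot be told apart.

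The members' levels differed more between libraries than those of the median gene, with a median ratio of highest to lowest library of 3.73 against 1.51 over all genes tested, and the 2 libraries that stood out were 1 of each group. KO 1 was the highest library for 20 of 32 members (62.5%), against 17.9% of all genes tested. KO 1 and WT 3 were the 2 highest for 15 of 32 (46.9%), against 6.39% of all genes tested. WT 1 was the lowest library for 12 members (37.5%) and WT 2 for 9 (28.1%), against 24.8% and 23.5% of all genes tested. The highest library was over 5 times the lowest for 13 members (40.6%), against 5.98% of all genes tested. It was over 20 times the lowest for 6 (18.8%), against 1.01%. Summed over the members, the level was 7117, 5555 and 4526 CPM in KO 1 to KO 3, and 3527, 4407 and 5473 CPM in WT 1 to WT 3. These groups overlap, with WT 3 above KO 3. Most of each sum came from the 6 calcium and synaptic signalling genes. They summed to 4629, 4370 and 3434 CPM in KO 1 to KO 3, and 2647, 3235 and 3727 CPM in WT 1 to WT 3. The mean log2 CPM over the members, which weighs each gene alike, was 5.19 in KO 2 and 5.74 in WT 3, the reverse of the order by sums.

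**Figure D1:**
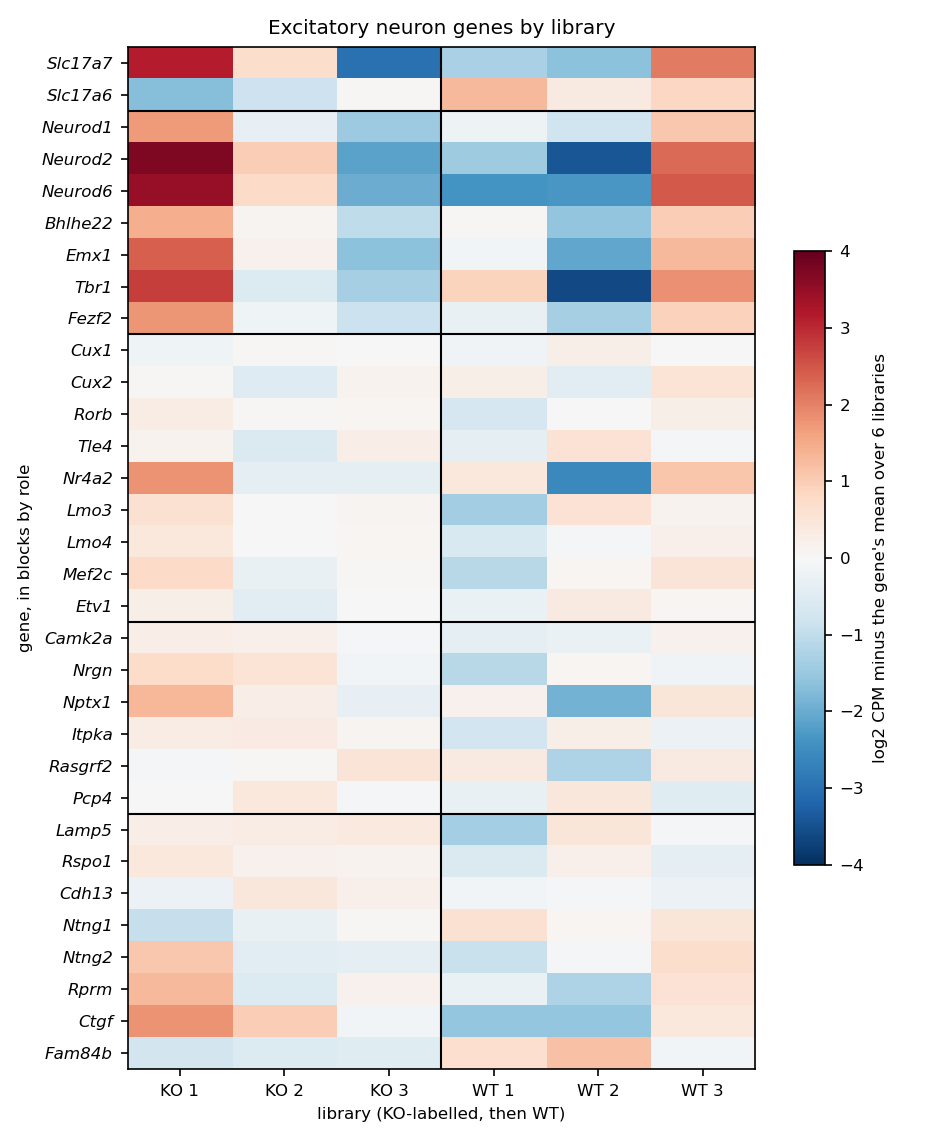
Each row is 1 of the 32 genes, in blocks by role, and each column 1 library, with KO-labelled libraries left of WT libraries. Colour gives the log2 CPM minus the gene's own mean over the 6 libraries. KO 1 and WT 3 have the reddest cells in the rows of Slc17a7 and of the 7 transcription factors below it. Paler red cells stand in KO 2 for Slc17a7, Neurod2 and Neurod6 and in WT 1 for Tbr1. Slc17a6, Ntng1 and Fam84b are bluer in KO 1 to KO 3.

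The vesicular glutamate transporters differed in their order of libraries. Slc17a7 encodes VGLUT1, the transporter of most cortical and hippocampal excitatory neurons. Its level was 939, 174 and 13.6 CPM in KO 1 to KO 3, and 43.6, 34.4 and 454 CPM in WT 1 to WT 3. KO 1 was 69.2 times KO 3, while within WT the highest library, WT 3, was 13.2 times the lowest, and all WT libraries lay inside the range of the KO-labelled ones. The mean was 375 ± 494 CPM in KO-labelled libraries and 177 ± 240 CPM in WT libraries (SD, n = 3 each). Its log2 fold change of 1.08 (SE 1.52) was smaller than its error, and it did not pass in edgeR (adjusted p = 0.857). Without KO 1 it was -0.92. Slc17a6 encodes VGLUT2, the transporter of thalamic and many other subcortical neurons. It was at 7.07, 12.8 and 23.7 CPM in KO 1 to KO 3, and at 56.8, 29.5 and 40.8 CPM in WT 1 to WT 3. Here the groups do not overlap, and KO 1, the library with the most Slc17a7, had the least Slc17a6. The mean was 14.5 ± 8.42 CPM in KO-labelled libraries and 42.3 ± 13.7 CPM in WT libraries (SD, n = 3 each). The log2 fold change was -1.54 (SE 0.46), which did not pass in edgeR (adjusted p = 0.398).

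**Figure D2:**
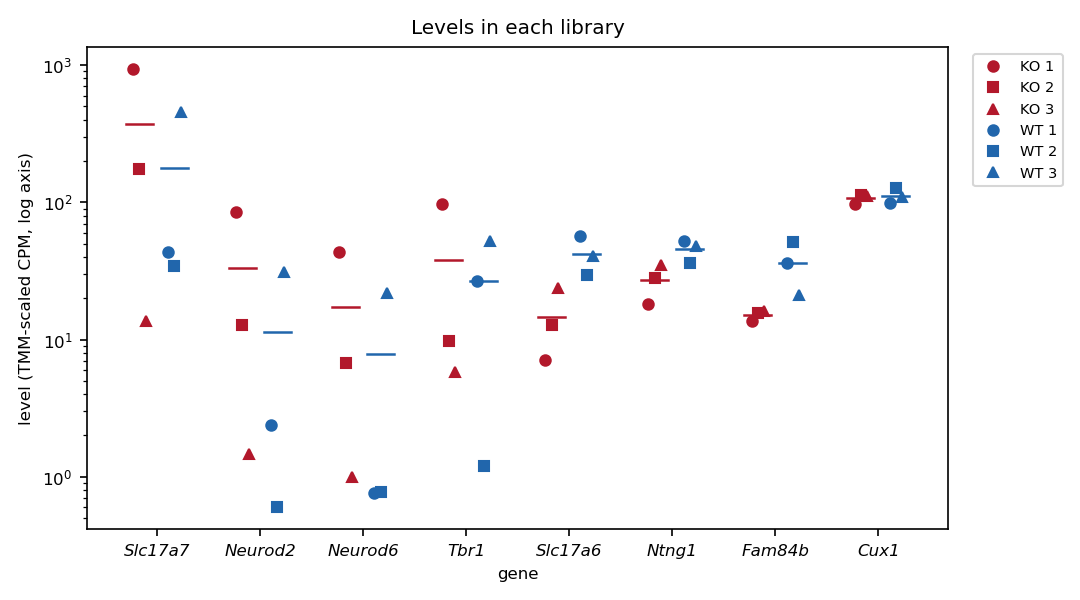
Levels of 8 genes in TMM-scaled CPM on a log axis, with KO-labelled libraries in red left of WT libraries in blue; each point is a library and each bar a group mean (n = 3). Slc17a7, Neurod2, Neurod6 and Tbr1 spread widely within each group, Slc17a6, Ntng1 and Fam84b do not overlap between groups, and Cux1 lies between 97.6 and 127 CPM in every library.

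The 7 transcription factors that set up pallial excitatory neurons all had KO 1 as the highest and WT 3 as the second highest library. Neurod2, a basic helix-loop-helix factor of postmitotic cortical neurons, was at 85.1, 12.8 and 1.47 CPM in KO 1 to KO 3, and at 2.38, 0.600 and 31.2 CPM in WT 1 to WT 3. Its highest library was 142 times its lowest, the widest span of the 32. Its close relative Neurod6 was at 43.8, 6.72 and 0.998 CPM in KO 1 to KO 3, and at 0.757, 0.780 and 21.8 CPM in WT 1 to WT 3. For both genes KO 3, WT 1 and WT 2 lay within a few CPM of each other and far below KO 1 and WT 3, and KO 2 lay between. Tbr1, the T-box factor of early-born deep-layer neurons, was at 97.8, 9.83 and 5.75 CPM in KO 1 to KO 3, and at 26.9, 1.1998 and 51.8 CPM in WT 1 to WT 3. For Tbr1, KO 2 lay below WT 1, while for Neurod2 and Neurod6 KO 2 lay above WT 1. Fezf2, a zinc finger factor of neurons that project below the cortex, was at 33.6, 8.74 and 5.46 CPM in KO 1 to KO 3, and at 8.01, 3.96 and 18.6 CPM in WT 1 to WT 3. The helix-loop-helix factor gene Bhlhe22 spanned 2.64 to 14.7 CPM in KO-labelled libraries and 1.80 to 10.7 CPM in WT libraries. Emx1, a homeobox gene of the dorsal telencephalon, spanned 0.411 to 6.65 CPM in KO-labelled libraries and 0.300 to 3.13 CPM in WT libraries. Neurod1, which acts earlier in differentiation, was the least abundant member, at 0.528 to 4.65 CPM in KO-labelled libraries and 0.840 to 3.07 CPM in WT libraries. All 7 log2 fold changes were positive, from 0.29 (SE 0.86) for Neurod1 to 1.54 (SE 1.63) for Neurod2. None exceeded its own standard error, and none passed in edgeR (lowest adjusted p = 0.806). Without KO 1 all 7 were negative, from -1.77 for Tbr1 to -0.50 for Bhlhe22.

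Layer factors were steadier. Cux1 and Cux2, cut-like homeobox genes of upper-layer neurons, had log2 fold changes of -0.07 (SE 0.13) and -0.26 (SE 0.29). Cux2 was at 49.5, 33.2 and 52.2 CPM in KO 1 to KO 3, and at 56.5, 34.9 and 70.2 CPM in WT 1 to WT 3. Cux1 was at 97.6, 112 and 110.5 CPM in KO 1 to KO 3, and at 99.6, 127 and 109 CPM in WT 1 to WT 3, with a highest library only 1.31 times the lowest. The Cux1 gene also gives rise to CASP, a Golgi protein without the homeodomain, and its deposited counts were split over 6 transcripts. Those 2 with the distal 3′ end, at position 136248135 of chromosome 5 in GENCODE M21, took 66.4% of the gene's counts, and the 2 with ends further upstream took 31.7%. Their summed counts were 1098, 1411 and 1192 in KO 1 to KO 3 against 1250, 1362 and 1209 in WT 1 to WT 3 for the distal end. For the upstream ends they were 509, 508 and 679 in KO 1 to KO 3 against 544, 715 and 635 in WT 1 to WT 3, so neither form had the KO 1 and WT 3 pattern. Such splits between overlapping transcripts are the authors' estimates. The Cux1 level above sums all 6 transcripts, so it does not separate CASP from the homeodomain factor.

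Nr4a2, an orphan nuclear receptor gene of deep-layer and claustral neurons, had the widest span of the layer factors, a ratio of 20.6 between its highest and lowest library, KO 1 and WT 2. It was at 56.9, 12.9 and 12.4 CPM in KO 1 to KO 3, and at 22.1, 2.76 and 35.7 CPM in WT 1 to WT 3. Mef2c, a MADS-box factor gene of maturing neurons, was at 229, 111 and 139 CPM in KO 1 to KO 3, and at 62.0, 143 and 195 CPM in WT 1 to WT 3. Lmo3, a LIM-only cofactor gene, was at 154, 99.3 and 109.5 CPM in KO 1 to KO 3, and at 38.4, 152 and 111 CPM in WT 1 to WT 3. For Mef2c and Lmo3 it was WT 1 that stood below the other 5 libraries. Lmo4, another LIM-only cofactor gene, was at 162, 121 and 128 CPM in KO 1 to KO 3, and at 80.3, 118 and 139 CPM in WT 1 to WT 3. Rorb, a nuclear receptor gene of middle-layer neurons, was at 27.7, 23.2 and 24.1 CPM in KO 1 to KO 3, and at 14.3, 23.2 and 26.4 CPM in WT 1 to WT 3. WT 1 was again the lowest library for both. Tle4, a corepressor gene of deep-layer neurons, was lowest in KO 2, at 49.4 CPM, and highest in WT 2, at 109 CPM. Etv1, an ETS factor gene of deep-layer output neurons, was likewise lowest in KO 2, at 42.6 CPM, and highest in WT 2, at 73.8 CPM. The 9 layer factors had log2 fold changes from -0.26 to 0.44, and none passed in edgeR (lowest adjusted p = 0.738).

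Calcium and synaptic signalling genes included the 3 most abundant members per length. Over the 6 libraries the mean level was 679 FPKM, counts scaled to transcript length and library total, for Pcp4, 537 FPKM for Nrgn and 457 FPKM for Camk2a, against 92.6 FPKM for Slc17a7 and 0.763 FPKM for Neurod1. Camk2a, the alpha subunit of calcium/calmodulin-dependent kinase II, was at 2652, 2529 and 2127 CPM in KO 1 to KO 3, and at 1704, 1818 and 2485 CPM in WT 1 to WT 3. Its log2 fold change was 0.28 (SE 0.18), with WT 3 inside the range of the KO-labelled libraries. Most of its counts, 79.96%, were assigned to the transcript from the outer start. A transcript that starts inside the gene had 13941, 9384 and 4101 counts in KO 1 to KO 3 against 3310, 1384 and 3995 counts in WT 1 to WT 3, again as estimated by the authors. Nrgn, which encodes the calmodulin-binding protein neurogranin, was at 1052, 939.8 and 589 CPM in KO 1 to KO 3, and at 294, 678 and 578 CPM in WT 1 to WT 3. KO 3 lay below WT 2, so these groups overlap too, with a log2 fold change of 0.74 (SE 0.35; edgeR adjusted p = 0.599). Pcp4, another regulator of calmodulin, was at 395, 534 and 385 CPM in KO 1 to KO 3, and at 331, 555 and 286 CPM in WT 1 to WT 3. These 3 genes are also expressed in striatal projection neurons, and none of them had KO 1 and WT 3 as its 2 highest libraries.

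The remaining signalling genes split in the same way. Nptx1, a neuronal pentraxin gene whose product gathers glutamate receptors at synapses, was at 331, 156 and 104 CPM in KO 1 to KO 3, and at 147, 35.6 and 182 CPM in WT 1 to WT 3, with KO 1 and WT 3 on top. Itpka, an inositol trisphosphate kinase gene, was at 114, 117 and 98.7 CPM in KO 1 to KO 3, and at 54.1, 109 and 79.1 CPM in WT 1 to WT 3. Rasgrf2, a Ras exchange factor gene of upper-layer neurons, was at 86.0, 94.1 and 130.5 CPM in KO 1 to KO 3, and at 116, 38.6 and 117 CPM in WT 1 to WT 3. WT 2 alone lay far below the rest for Rasgrf2, as it did for Nptx1. All 6 signalling genes had positive log2 fold changes, from 0.17 for Pcp4 to 0.74 for Nrgn, and none passed in edgeR. With libraries scaled to the pan-neuronal genes, Rasgrf2 was at -0.0047 and Pcp4 at -0.10. Rasgrf2 was also below 0 without KO 3 (-0.0093), without WT 2 (-0.18) and with KO 1 alone against WT (-0.075), and Pcp4 without KO 2 (-0.0023) and without WT 3 (-0.017).

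Among surface and secreted proteins, Ntng1 and Ntng2 encode netrin-G proteins, membrane-anchored relatives of the netrins that mark different axon pathways. Ntng1, strong in thalamic neurons, was at 18.1, 28.2 and 35.2 CPM in KO 1 to KO 3, and at 52.2, 36.1 and 47.9 CPM in WT 1 to WT 3. Ntng2 was at 17.3, 6.21 and 6.34 CPM in KO 1 to KO 3, and at 4.44, 7.74 and 13.3 CPM in WT 1 to WT 3. Like Slc17a6, Ntng1 had no overlap between groups and was lowest in KO 1, while Ntng2, like Slc17a7, was highest in KO 1 and WT 3. The log2 fold change was -0.74 (SE 0.26) for Ntng1 and 0.23 (SE 0.55) for Ntng2, with adjusted p values of 0.488 and 0.924 in edgeR.

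Ctgf, which encodes connective tissue growth factor and marks the deepest cortical layer, had the largest positive fold change of the 32. It was at 61.2, 35.2 and 16.4 CPM in KO 1 to KO 3, and at 6.06, 6.12 and 23.7 CPM in WT 1 to WT 3, so that WT 3 lay above KO 3. Its log2 fold change was 1.65 (SE 0.70; edgeR adjusted p = 0.554), and it stayed positive with each library left out, from 1.11 to 2.63. Rprm, a gene of the p53 pathway that marks deep-layer neurons, was at 32.03, 9.08 and 14.8 CPM in KO 1 to KO 3, and at 11.0, 5.58 and 19.7 CPM in WT 1 to WT 3. Lamp5, a membrane protein gene of upper-layer neurons, was at 70.7, 71.8 and 76.0 CPM in KO 1 to KO 3, and at 23.0, 81.9 and 55.1 CPM in WT 1 to WT 3. The KO-labelled libraries agree closely for Lamp5, and WT 1 is again the low one. Rspo1, which encodes a secreted enhancer of Wnt signalling, spanned 9.27 to 11.2 CPM in KO-labelled libraries and 5.63 to 9.78 CPM in WT libraries. Cdh13, which encodes a cadherin anchored by a lipid tail, spanned 106 to 172 CPM in KO-labelled libraries and 107 to 118 CPM in WT libraries, a log2 fold change of 0.31 (SE 0.18).

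Fam84b had the smallest p of the 32. It was at 13.7, 15.7 and 16.2 CPM in KO 1 to KO 3, and at 36.2, 51.7 and 21.0 CPM in WT 1 to WT 3. Every KO-labelled library lay below every WT library, and WT 3 was nearest to them. The log2 fold change was -1.26 (SE 0.31), which did not pass in edgeR over all genes (adjusted p = 0.299). Without WT 3 it passed in edgeR (adjusted p = 0.033), where 0.895% of all genes were called lower. Fam84b is at chr15:60818996-60826105 (mm10), a locus 2.98 Mb beyond the end of Zhx2. WT 3 was also the WT library with the lowest choroid plexus level, and the part of choroid plexus RNA in the differences of Fam84b, Slc17a6 and Ntng1 was not tested.

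Across the set, 0 of 32 members passed an adjusted p of 0.05 in edgeR's quasi-likelihood test, where 0% of all 15126 genes passed (lowest adjusted p of a member 0.299). At an unadjusted p under 0.05 there were 3 members, Fam84b, Slc17a6 and Ntng1, all lower in KO-labelled libraries. Of all genes tested, 9.07% were under that p, 6.39% lower and 2.68% higher. The same 3 were the only members whose groups did not overlap, against 16.7% of all genes tested, with 8.77% lower and 7.98% higher in KO-labelled libraries. DESeq2 called Slc17a6 (adjusted p = 0.0186) and Fam84b (adjusted p = 0.00815) lower, where it called 2.06% of all genes, 2.02% lower, and limma-voom called no member, where it called 0% of all genes. Over the 18 alternatives, the adjusted p ranged from 0.0186 to 0.827 for Slc17a6 and from 0.00815 to 0.827 for Fam84b.

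By sign, the log2 fold change was above 0 in 25 of 32 members (78.1%), and its median was 0.30, against 53.4% and a median of 0.02 over all genes tested. Without KO 1, 13 of 32 were positive and the median was -0.14, while with any other library left out between 22 and 26 were positive. The sign reversed for 12 members without KO 1, for 3 without KO 2 and for 1 without KO 3, and for 3 without WT 1, 8 without WT 2 and 1 without WT 3. Without both KO 1 and WT 3, a comparison chosen after the data were seen, 23 of 32 were positive with a median of 0.28, and no member passed. With libraries scaled to the pan-neuronal genes, the median was 0.10 over the members and -0.22 over all genes tested. In every member, the spread within at least 1 group exceeded the difference between groups on the log2 scale, as it did in 91.0% of all genes tested.

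**Figure D3:**
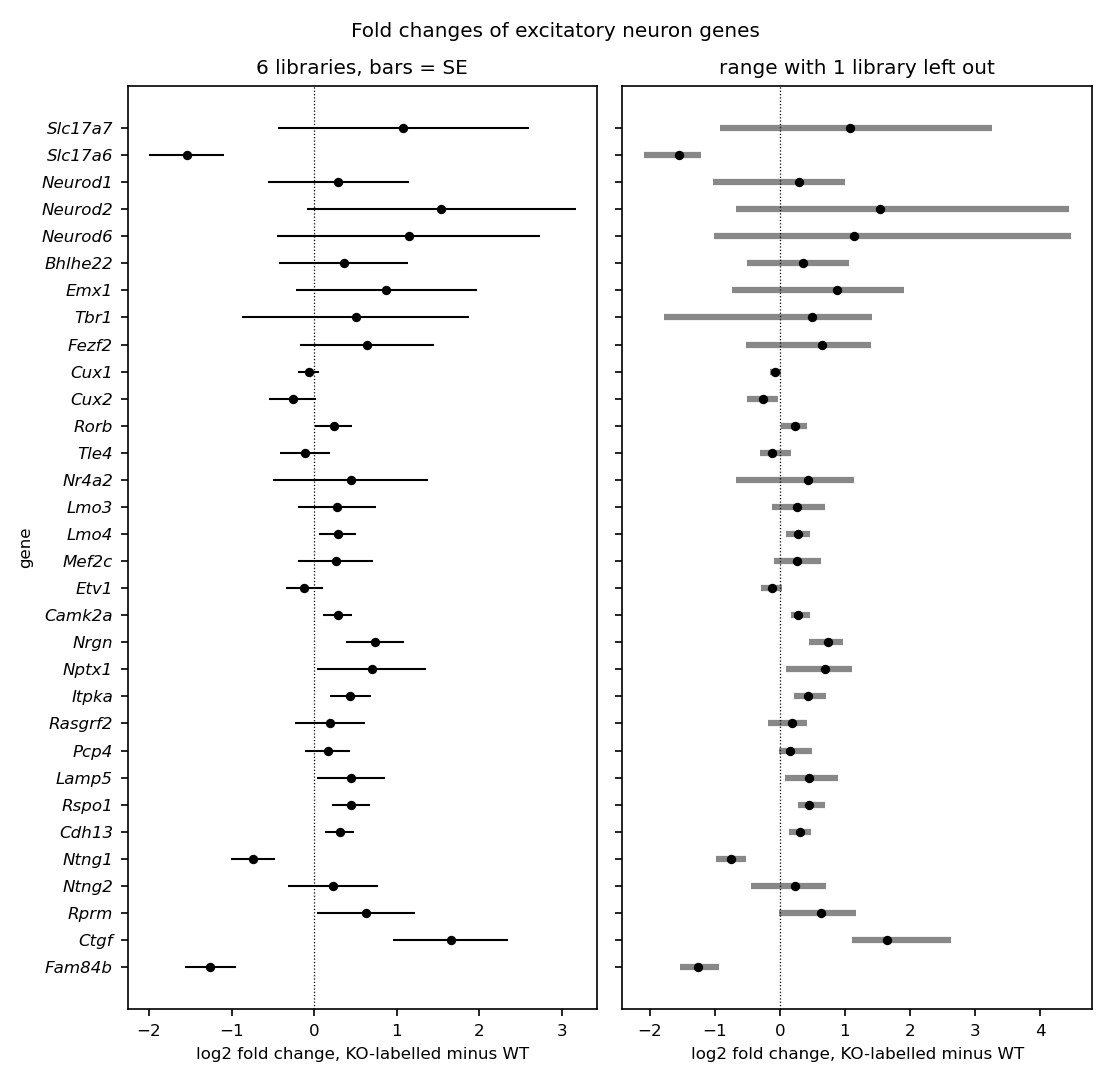
Log2 fold changes of the 32 genes, KO-labelled minus WT libraries; bars are standard errors on the left, and on the right the range over the 6 fits with 1 library left out, with the 6-library value as a point. The ranges of Slc17a7, the 3 Neurod genes, Bhlhe22, Emx1, Tbr1 and Fezf2 cross 0, and those of Slc17a6, Ntng1 and Fam84b lie wholly below it.

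Other genes of pallial neurons, on a list of 19 that holds none of the members, varied likewise. Like the members, these genes were chosen with earlier results of these data known. KO 1 was the highest library for 13 of 19 (68.4%), and WT 1 the lowest for 13, against 17.9% and 24.8% of all genes tested. The summed level of the 19 was 1395, 642 and 597 CPM in KO 1 to KO 3, and 404, 736 and 932 CPM in WT 1 to WT 3. None of the 19 passed in edgeR, with 1 at an unadjusted p under 0.05, and 17 log2 fold changes were above 0 (median 0.38); without KO 1 the median was -0.15. Cplx3, a complexin gene of deep-layer neurons, was at 26.4, 2.87 and 0.998 CPM in KO 1 to KO 3, and at 0.433, 3.24 and 3.31 CPM in WT 1 to WT 3. Sv2b, a synaptic vesicle protein gene, was at 257, 106 and 90.5 CPM in KO 1 to KO 3, and at 33.3, 162 and 160 CPM in WT 1 to WT 3. KO 1 stood alone for Cplx3, and WT 1 was the low library for Sv2b.

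Markers of the tissues around the SVZ moved between the same libraries, in other orders. Striatal projection neuron markers summed to 5461, 7158 and 7145 CPM in KO 1 to KO 3, and to 1341, 11518 and 3718 CPM in WT 1 to WT 3. WT 2 was highest and WT 1 lowest for 16 of these 17 genes each, against 22.0% and 24.8% of all genes tested. Of the 12 members that were lowest in WT 1, Lmo3, Lamp5 and Rspo1 also had WT 2 among their 2 highest libraries, 9.38% of the 32, against 13.1% of all genes tested. Septal and basal forebrain markers summed to 304, 534 and 542 CPM in KO 1 to KO 3, and to 945, 154 and 581 CPM in WT 1 to WT 3. Zic1, a zinc finger gene of the septum, was at 149.7, 235 and 238 CPM in KO 1 to KO 3, and at 495, 58.7 and 288 CPM in WT 1 to WT 3. WT 1 was thus richest and WT 2 poorest in septal markers. Of the 32 members, Slc17a6 and Ntng1 were highest in WT 1 (6.25%), against 20.4% of all genes tested. Lowest in WT 2 were 9 members (28.1%), among them Rasgrf2, Nptx1, Tbr1 and Nr4a2, against 23.5% of all genes tested. Of the 9 thalamic markers, 5 were highest in WT 2, against 22.0% of all genes tested. The median log2 fold change of the thalamic markers was -0.50, with 8 of 9 negative and 0 passing in edgeR. Their sum was 172, 229 and 205 CPM in KO 1 to KO 3, and 311, 206 and 241 CPM in WT 1 to WT 3, of which Prkcd, a protein kinase C gene, alone made up 68.7, 151 and 109 CPM in KO 1 to KO 3, and 222, 26.9 and 122 CPM in WT 1 to WT 3. All 10 oligodendrocyte markers were highest in KO 1 and lowest in KO 3, against 17.9% and 12.6% of all genes tested. The oligodendrocyte markers summed to 20235, 11948 and 8767 CPM in KO 1 to KO 3, and to 14645, 14433 and 14360 CPM in WT 1 to WT 3. Pan-neuronal genes varied less, with a median ratio of highest to lowest library of 1.41 and sums of 7268, 6588 and 7120 CPM in KO 1 to KO 3, and 5671, 5689 and 7009 CPM in WT 1 to WT 3. How far the content of these neighbouring tissues accounts for the members' levels was not tested.

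**Figure D4:**
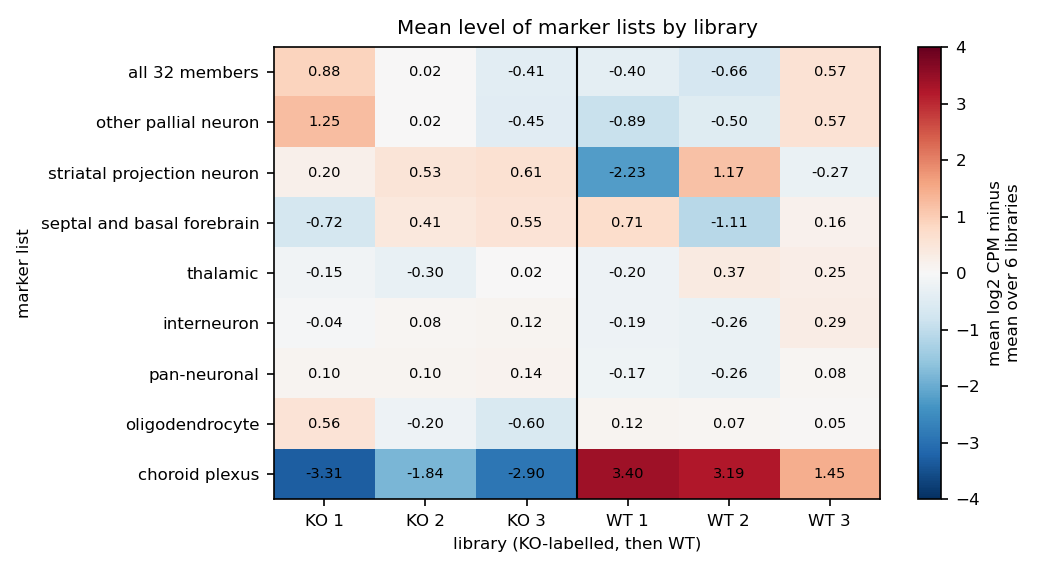
Mean log2 CPM of the tested genes of each marker list minus its mean over the 6 libraries, with KO-labelled libraries left of WT libraries. The excitatory neuron genes are at 0.88 in KO 1 and 0.57 in WT 3, striatal markers at -2.23 in WT 1 and 1.17 in WT 2, septal markers at 0.71 in WT 1 and -1.11 in WT 2, and choroid plexus markers below 0 in all KO-labelled libraries and above 0 in all WT libraries.

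For the cortical name, Slc17a7, Neurod2 and Neurod6 were all detected in this SVZ material. Each had KO 1 and WT 3 as its 2 highest libraries. In all, 15 of 32 members had this pattern, against 6.39% of all genes tested. Among the layer factors, Rorb, Nr4a2, Lmo4 and Mef2c had it, while Cux1, Cux2, Tle4, Lmo3 and Etv1 did not. Slc17a7 also serves hippocampal neurons, so its detection cannot tell cortex from hippocampus. The septal name was not tested. Summed septal markers were highest in WT 1 and lowest in WT 2, where Neurod6 was at 0.757 and 0.780 CPM. Of the 9 septal markers, 5 were highest in WT 1 and 5 lowest in WT 2, against 20.4% and 23.5% of all genes tested. Of the 32 members, Slc17a6 and Ntng1 were highest in WT 1 (6.25%), and 9 were lowest in WT 2 (28.1%).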

How the data were processed

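RNA from the SVZ was measured in 3 KO-labelled and 3 WT libraries, grouped and numbered by their titles. For each of 61481 RefSeq transcripts the deposited file holds an estimated count per library, and an FPKM that the authors scaled for length and depth, per the file headers and values. The transcript length implied by count and FPKM differed between libraries by at most a ratio of 1.0028. The submitters' processing notes name mm10 as the build and limma 3.40.6 as a tool; which aligner and counting tool were used is not stated there.

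Summing the estimated counts over the transcripts of each NCBI gene gave 18614 genes, which were rounded. A symbol from the RefSeq table of GRCm38.p6, the same sequence as mm10, was found for 18489, and the rest held 0.104% to 0.140% of counts. Genes kept by filterByExpr (minimum count 10) entered a fit in edgeR 4.0.16 under R 4.3.3 (TMM normalization, the robust quasi-likelihood F test with group alone in the model, two-sided, and Benjamini-Hochberg adjustment over 15126 genes). Standard errors were derived from the fold change and F. FPKM, summed per gene, served only to compare levels between genes and in 1 alternative. A count of 3, the limit that a count of 0 allows, is 0.17 to 0.176 CPM before TMM scaling and covers counting error only. It was the floor in ratios of highest to lowest library, and every member was above it in every library. Replicates differed beyond sampling noise (chi-square per degree of freedom 21.7 to 95.4 within groups).

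The 32 members and the 16 other marker lists (157 genes) were chosen with earlier results of these data known. All members are named. From each other list, up to 3 genes with the smallest p and up to 3 with the highest level could be named; Zhx2 and the genes of the closing observations were added outside this rule. Results of lists that are not described in the report are given with the closing observations. DESeq2 1.42.0 and limma 3.58.1 served as alternatives. The procedure was tested on simulated counts.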

Additional observations from a re-analysis of the deposited data

How the results depend on the processing

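For Neurod2 the highest library was 142 times the lowest, and the effect of depth or of more libraries on the calls was not tested. Over 18 alternatives, 13 of 32 members kept the sign of their log2 fold change and 19 reversed at least once. DESeq2 called 2 members and the fit without WT 3 called 1, against 0 in edgeR with all libraries. With each library left out, the number called ranged from 0 to 1, the number of positive members from 13 to 26, the members' median from -0.14 to 0.47 and that of the other pallial genes from -0.15 to 0.64; the lowest of these medians and the 13 came without KO 1. The cause was not tested.

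With each library left out, log2 fold changes ranged from -0.92 to 3.27 for Slc17a7, -1.03 to 1.01 for Neurod1, -0.68 to 4.45 for Neurod2, -1.01 to 4.47 for Neurod6, -0.50 to 1.07 for Bhlhe22, -0.73 to 1.90 for Emx1, -1.77 to 1.42 for Tbr1 and -0.52 to 1.41 for Fezf2. They ranged from -0.67 to 1.14 for Nr4a2, -0.093 to 0.64 for Mef2c, -0.44 to 0.71 for Ntng2, -0.012 to 1.17 for Rprm, -0.30 to 0.18 for Tle4, -0.28 to 0.042 for Etv1, -0.017 to 0.49 for Pcp4, -0.18 to 0.42 for Rasgrf2, -0.12 to 0.69 for Lmo3 and -0.14 to 0.027 for Cux1. Neurod1 was at -0.056 in limma-voom and -0.033 on log2(FPKM + 0.1). With KO 1 alone against WT, Tle4 was at 0.038, Etv1 at 0.16, Rasgrf2 at -0.075 and Cdh13 at -0.095. Scaled to pan-neuronal genes, Rasgrf2 was at -0.0047 and Pcp4 at -0.10. In KO 2 and KO 3 against WT 1 and WT 2, added after the data were seen, Neurod1 was at -0.31 and Tbr1 at -0.85, while 0 members and 44 of 15209 genes were called.

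The replicate numbers did not pair the libraries: deviations from the group means correlated at -0.162, -0.0674 and -0.0368 for numbers 1 to 3. With the replicate block, 0 members were called, as without it, and the median was 0.38. A filter of 5 CPM left 30 members.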

Other observations

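A group of 7 genes, most of them known from neurons of the olfactory bulb, was highest in WT 1. Eomes, a T-box gene of intermediate progenitors that also marks glutamatergic neurons of the olfactory bulb, had 5, 10 and 17 counts in KO 1 to KO 3, and 702, 3 and 272 counts in WT 1 to WT 3. Lhx1, a LIM homeobox gene of bulb projection neurons, had 4, 2 and 3 counts in KO 1 to KO 3, and 61, 1 and 21 counts in WT 1 to WT 3. Uncx had 0, 3 and 6 counts in KO 1 to KO 3, and 105, 3 and 31 counts in WT 1 to WT 3, and Lhx5 had 6, 9 and 32 counts in KO 1 to KO 3, and 59, 1 and 34 counts in WT 1 to WT 3. Cdhr1, a photoreceptor cadherin gene also used by mitral cells, had 149, 108 and 45 counts in KO 1 to KO 3, and 365, 68 and 175 counts in WT 1 to WT 3. Doc2g had 88, 190 and 119 counts in KO 1 to KO 3, and 290, 46 and 186 counts in WT 1 to WT 3, and Calb2, which encodes calretinin and is also on the interneuron list, had 417, 634 and 675 counts in KO 1 to KO 3, and 4093, 259 and 1842 counts in WT 1 to WT 3. WT 3 was the second highest library for Eomes, Lhx1, Uncx, Lhx5, Cdhr1 and Calb2. In WT 1, Neurod2 was at 2.38 CPM and Neurod6 at 0.757 CPM. These 7 genes were chosen after their values were seen, and no test was made.

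The remaining marker lists had 0 genes passing in edgeR. The median log2 fold change was 0.21 over 5 pallial progenitor genes, -0.05 over 6 hippocampal genes, 0.04 over 9 septal genes, 0.25 over 17 striatal genes, 0.16 over 10 interneuron genes, 0.23 over 11 pan-neuronal genes and -0.08 over 9 neuroblast genes. It was 0.15 over 8 astrocyte genes, -0.08 over 10 oligodendrocyte genes, 0.32 over 8 microglia genes, 0.18 over 6 endothelial genes and -0.31 over 6 meningeal genes. Choroid plexus genes had a median of -5.71, and ependymal genes one of -0.82. Lower in every KO-labelled library than in any WT library were 11 of 11 and 6 of 9, against 8.77% of all genes tested.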
